A study of Mus musculus with 4 samples.

Results

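Natural killer (NK) cells are described here among the leukocytes of mouse hearts, and they were chosen by measured values, namely the unique molecular identifiers (UMIs, each standing for 1 captured mRNA molecule) of a few genes. A droplet barcode was kept when it held at least 200 genes and under 10% mitochondrial UMIs. It was counted as an NK cell with 3 or more UMIs of Ncr1, Klrb1c and Klre1 together and few UMIs of other types: at most 1 of Cd3d, Cd3e and Cd3g, 9 of C1qa, C1qb and C1qc, 4 of Cd79a, Cd79b and Ms4a1, and 2 of Csf3r and Retnlg. This left 120 NK cells of 2558 kept barcodes after the isotype control antibody and 127 of 4278 after the CD40 agonist antibody, or 247 of 6836 kept barcodes and of 11995 barcodes in all.

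The hearts came from C57BL6J mice given either Rat IgG as the isotype control or an agonist antibody to CD40, a receptor of antigen-presenting cells. Atria were removed, and the hearts of 4 mice per treatment were digested for 20 min at 37 °C, pooled and passed through a 40 µm strainer, so that each treatment is 1 library and animals cannot be told apart. The labels name a sort for CD45+DAPI- cells, while the series text names DRAQ5+DAPI- cells. Each cell was read in a CITE-seq assay, which counts mRNA and a panel of DNA-tagged antibodies to surface proteins. With 1 library per treatment there is no replicate and no test. Every interval given is a 95% interval that covers counting error alone, not the spread between mice, and UMIs of 1 cell are not independent. Dose, time and age of the mice were not given in the sources used here.

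NK cells are innate lymphocytes that kill target cells by releasing perforin and granzymes and that secrete interferon-gamma. Their activity follows the balance of activating and inhibitory receptors, and cytokines such as interleukin-12, interleukin-15 and interleukin-18, much of them made by macrophages and dendritic cells, prime them. In mouse tissues, circulating NK cells carry the integrin CD49b, whereas type 1 innate lymphoid cells (ILC1), close relatives that also carry Ncr1 and Klrb1c, are known for little CD49b and for CXCR6, CD69 and CD49a.

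The other markers of NK cells were read to check the label. All 17 NK markers that the rule did not use were present in both libraries, with a median of 141 UMIs per cell (2 to 334) in the isotype library and 161 (6 to 1244) in the CD40 agonist library. Nkg7, a granule membrane gene, had a UMI in 118 of 120 and 127 of 127 cells, Prf1 in 112 and 120, and Gzma in 114 and 111. Other markers of the list were less widespread, with Tbx21 in 68 and 78 cells and Eomes in 76 and 41. This check does not separate NK cells from ILC1. The 3 genes of the rule gave a median of 13 UMIs in each library. Of the cells just inside the threshold, 5 and 7 had 3 such UMIs, and 10 and 7 barcodes just outside it had 2. Most cells were chosen by more than 1 gene, since 118 and 122 had UMIs of at least 2 of the 3 genes.

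Transcripts of macrophages were low in these cells but not absent. In the isotype library 47 of 120 cells had no C1q UMI, as did 9 of 127 cells in the other, and 0 and 20 cells had 5 or more. In the CD40 agonist library 4 cells held 7 to 9 C1q UMIs, just inside the limit, and 2 barcodes held 10 to 12, just outside it. The 22 other phagocyte markers summed to a median of 4.5 UMIs per cell (0 to 267) and 6 (0 to 272), and their level in the NK cells had a median over markers of 2.48% (1.104 to 8.06) and 3.09% (0 to 13.2) of that in reference phagocytes, meaning barcodes with 10 or more C1q UMIs. The median share is called the carry-over, and a gene is read as the NK cells' own only where its level was at least 3 times what the carry-over gives. This limit is set from phagocytes alone, so transcripts of other cell types can pass it. The neutrophil gene S100a8 and the immunoglobulin gene Igkc did pass it. The F4/80 tag, an antibody to a macrophage protein, was at 64 or more UMIs on 3 and 18 NK cells, and 1 isotype cell held 1757 UMIs of the phagocyte and dendritic cell markers together. No doublet caller was run. None of the 13 barcodes shared by both libraries was an NK cell.

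Other cell types left few UMIs. T cell markers outside the rule summed to a median of 2.5 and 4 UMIs per cell (highest 23 and 45), most of them Trbc1 and Trbc2, receptor constant genes, while Trac was in 5 and 8 cells. Neutrophil markers had a median of 0 and 2 (highest 5 and 128), B cell markers 2 and 0 (21 and 5) and dendritic cell markers 3 and 10 (1490 and 74). Markers of ILC2 and ILC3, endothelium, fibroblasts, cardiomyocytes and red cells or platelets all had a median of 0 in both libraries, with highest sums of 10 and 5, 3 and 4, 3 and 2, 4 and 4, and 2 and 1. The part of these other transcripts in the results was not tested. Gene UMIs per NK cell had a median of 4794.5 (860 to 23556) and 6152 (972 to 54909) and summed to 622489 and 1022043.

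By the rule, NK cells were 4.69% (3.90 to 5.58) of kept barcodes in the isotype library and 2.97% (2.48 to 3.52) in the CD40 agonist library, a difference of -1.72 percentage points (-2.73 to -0.788). The difference changed with the denominator: among kept barcodes with 9 or fewer C1q UMIs the shares were 8.36% and 8.36%, and barcodes with 3 or more NK UMIs and no limit on other genes were 5.90% and 5.54%. These shares are a description of the sorted barcodes.

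Gene levels are given as CPM, the counts of a gene scaled to 1000000 gene UMIs of all NK cells of a library. Over 2-fold means a log2 ratio, with 10 CPM added to both levels, beyond 1 in either direction, among 5884 genes with a mean of at least 20 CPM and outside the rule. After the CD40 agonist 181 genes (3.08% of 5884) were over 2-fold higher and 293 (4.98%) over 2-fold lower. These 2 shares are the background for the counts of each gene list over all NK cells given below. The median gene had a log2 ratio of -0.13. Scaling by TMM, which moves that median to 0.01, gave 263 higher and 181 lower genes, so that the balance between the directions depends on the scaling.

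Of 20 counted cytotoxic genes 3 were over 2-fold higher and 1 lower, with a median log2 ratio of 0.27. Gzmb, a protease that triggers death of the target cell, was at 586 CPM in isotype NK cells and 1423 CPM after the agonist, 2.43-fold higher (2.16 to 2.73). Gzmc, a further granzyme, had 1 UMI in the isotype library and 133 in the other, an 81.0-fold ratio (14.3 to 3223), in 14 cells, and its near-identical neighbours could share UMIs with it. A single cell held 55 of the 133 Gzmc UMIs. Serpina3g, an intracellular protease inhibitor induced by interferon-gamma, was at 77.1 and 303 CPM, 3.93-fold higher (2.90 to 5.45).

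Gzma and Prf1, the pore-forming perforin, were already high and differed less: Gzma had levels of 9602 and 13176 CPM, a 1.37-fold ratio (1.33 to 1.41), and Prf1 was at 1248 and 1818 CPM, 1.46-fold higher (1.34 to 1.59). Cma1, a mast cell type chymase gene, was the 1 cytotoxic gene over 2-fold lower, at 341 and 123 CPM. After thinning each cell to 1000 UMIs, Gzmb was detected in 37.3% of isotype cells and 54.0% of CD40 agonist cells (71.7% and 80.3% before thinning), and in 0% and 0.468% of thinned reference phagocytes, whose median depths were 7182.5 and 10672 UMIs. The detection limit for a count of 0 is 0.448% of those phagocytes. Thinning left out 2 and 1 NK cells and 9 and 18 phagocytes.

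**Figure D1:**
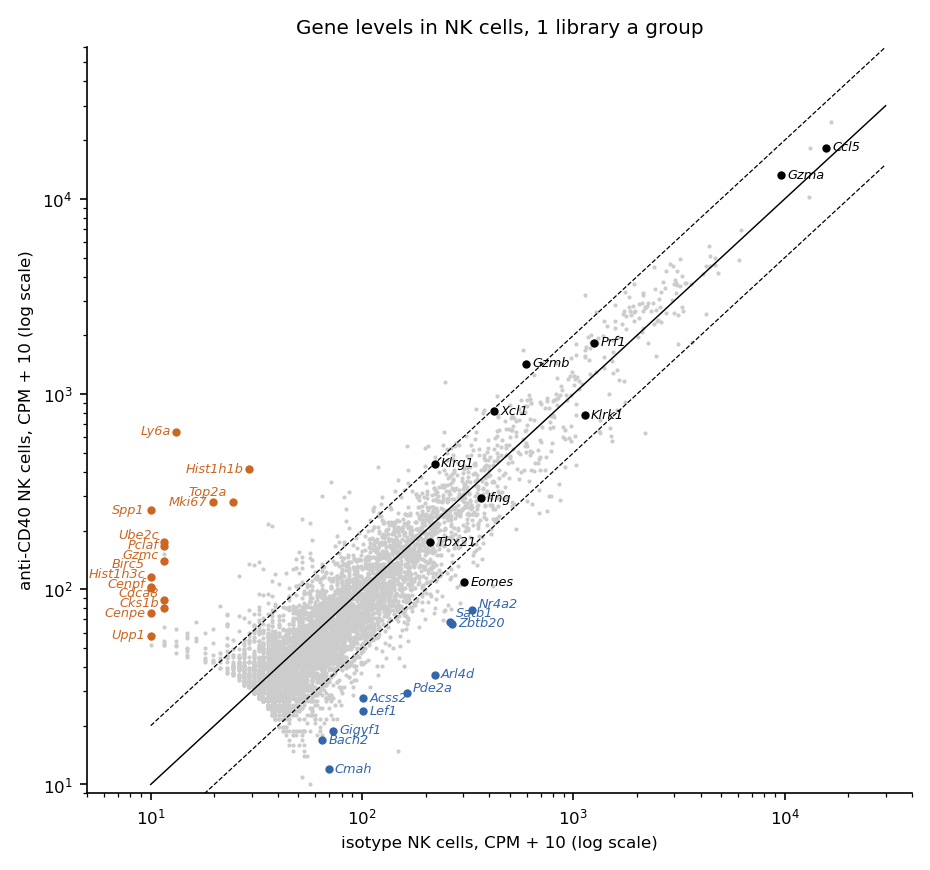
Level of each counted gene in the NK cells of the isotype library (horizontal axis) and of the CD40 agonist library (vertical axis), in CPM with 10 added, on log scales, with orange for the highest named genes, blue for the lowest and black for other NK genes. The solid line marks equal levels and the dashed lines 2-fold differences, and Ly6a, at 3.21 and 630.1 CPM, lies farthest above equality.

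The highest log2 ratio of all named genes was that of Ly6a, which encodes the surface protein Sca-1, known to be induced on lymphocytes by interferons. Ly6a had 2 UMIs in the isotype NK cells (3.21 CPM) and 644 in the CD40 agonist NK cells (630.1 CPM), a 196-fold ratio (54.1 to 1623). Among the isotype NK cells 2 had a UMI, and 103 did after the agonist, so it was spread over most cells of 1 library and nearly missing from the other. Reference phagocytes carried it too, at 18.2 and 1748 CPM, and the level in CD40 agonist NK cells was 11.7 times the carry-over, or 2.74 times at the share of the highest phagocyte marker. Thinned to 1000 UMIs, it was in 0.847% and 41.3% of NK cells, against 1.20% and 56.7% of phagocytes and 1.75% and 25.4% of neutrophils. The Sca-1 tag moved the same way, from a median of 2 to 16 tag UMIs per cell. Reference T cells, 28 and 118 barcodes, had Ly6a at 187 and 1101 CPM.

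Of 20 counted genes induced by interferon-gamma 9 were over 2-fold higher and 0 lower, with a median of 0.89. Members that did not pass include Irf8, a transcription factor, with a log2 ratio of -0.08 and Irgm1, an immunity-related GTPase, with -0.23. Of these, Ly6a, Serpina3g, Igtp, Socs1, Gbp4 and Gbp2 stood above the carry-over, while Cxcl9 and Iigp1 were near it (46.0 CPM against 51.3, and 44.0 against 34.0). At the share of the highest phagocyte marker Serpina3g, Socs1 and Gbp4 were still over 3 times the carry-over, at 10.7, 8.90 and 4.34 times, while Ly6a, Igtp and Gbp2 were not. Socs1, a feedback inhibitor of cytokine receptors, was at 48.2 and 131 CPM, 2.72-fold higher (1.82 to 4.19). Igtp, an immunity-related GTPase, was at 27.3 and 82.2 CPM, 3.01-fold higher (1.77 to 5.41).

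In the list of MHC class I genes 4 of 19 were over 2-fold higher and 0 lower, with a median of 0.60. These were Psmb8 (336 and 825 CPM) and Psmb9 (148 and 312 CPM), catalytic subunits of the immunoproteasome, Psme2 (241 and 512 CPM), of its activator, and the class Ib gene H2-T22 (104 and 252 CPM), which has close copies. H2-K1 and H2-D1, the classical heavy chains, were at 3059 and 3714 CPM and at 3039 and 3290 CPM. Genes known mainly from type I interferon gave 5 of 17 higher and 0 lower, with a median of 0.20. Rtp4 (4.82 and 47.9 CPM), Usp18 (4.82 and 35.2 CPM), Bst2 and Zbp1 stood above the carry-over and Ifi27l2a near it (214 CPM against 78.8), and at the share of the highest phagocyte marker only Usp18 of these still did, at 4.46 times, while Irf7, Stat2 and Slfn8 had log2 ratios of -0.32, -0.35 and -0.35.

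**Figure D2:**
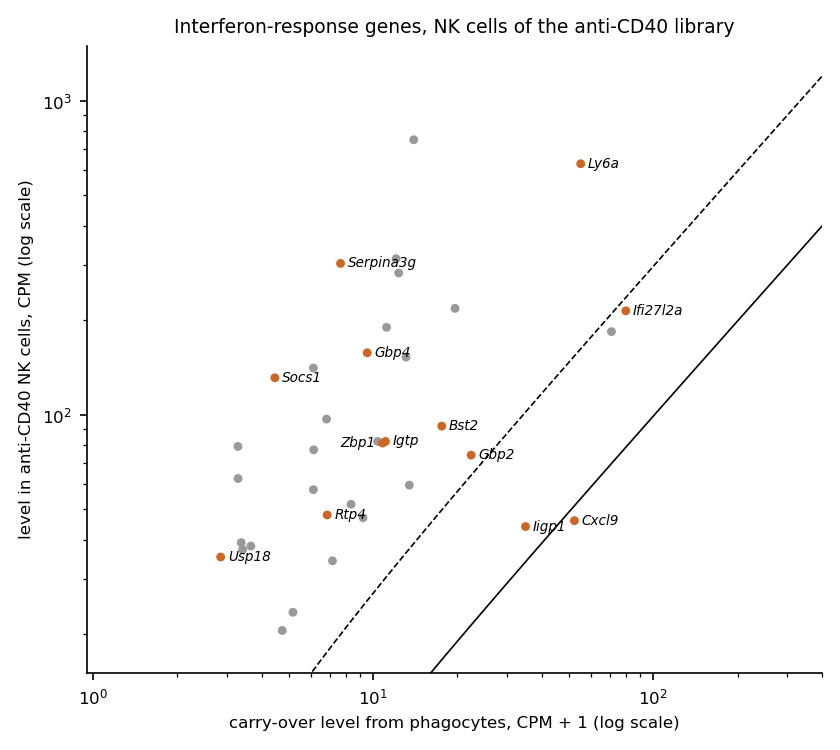
Genes of the interferon-gamma and type I interferon lists in CD40 agonist NK cells (vertical axis, CPM) against the level that carry-over from phagocytes would give (horizontal axis, CPM with 1 added), on log scales, with genes over 2-fold higher than in the isotype library in orange. The solid line marks the carry-over level and the dashed line 3 times that level, and Ly6a and Serpina3g lie above both, whereas Cxcl9, Iigp1 and Ifi27l2a lie under the dashed line.

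The promoters of these genes are shown because genes induced by interferons are known for short elements there. The stretches are the 250 bases before the start site in RefSeq (GRCm38.p6), at chr12:104235897-104236146 on the plus strand for Serpina3g, chr11:58199306-58199555 on the plus strand for Igtp and chr16:10785537-10785786 on the minus strand for Socs1. Capitals mark matches, on either strand, to TTCNNNGAA, a form of the gamma-activated site, or GAAANNGAAA, a form of the interferon-stimulated response element. The matches in Igtp lie side by side, and those in Socs1 overlap.
Serpina3g: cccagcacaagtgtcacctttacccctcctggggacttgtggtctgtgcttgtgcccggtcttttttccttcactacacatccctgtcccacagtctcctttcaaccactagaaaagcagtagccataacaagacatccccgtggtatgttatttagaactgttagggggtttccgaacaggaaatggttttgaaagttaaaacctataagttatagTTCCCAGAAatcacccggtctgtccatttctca
Igtp: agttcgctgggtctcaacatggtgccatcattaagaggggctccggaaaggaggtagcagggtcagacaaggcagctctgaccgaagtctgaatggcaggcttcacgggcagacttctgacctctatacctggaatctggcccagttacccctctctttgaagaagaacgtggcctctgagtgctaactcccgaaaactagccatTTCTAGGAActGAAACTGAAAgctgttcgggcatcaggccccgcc
Socs1: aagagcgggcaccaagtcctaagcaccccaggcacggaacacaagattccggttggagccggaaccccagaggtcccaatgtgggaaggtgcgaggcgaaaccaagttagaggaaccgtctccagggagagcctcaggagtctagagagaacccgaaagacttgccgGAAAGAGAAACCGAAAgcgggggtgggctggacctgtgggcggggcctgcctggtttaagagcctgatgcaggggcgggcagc

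Of 11 genes of the interferon-gamma and MHC class I lists that were over 2-fold higher and above the carry-over, 8 had a promoter in the RefSeq table. Matches to TTCNNNGAA were in 3 of the 8 and in 7.18% of 27025 promoters of the same length, and matches to GAAANNGAAA were in 4 of the 8 and in 3.04% of the 27025. The 8 genes come from lists drawn up from known interferon-gamma-induced and MHC class I genes. Their shares of matches therefore describe the lists and say nothing about these NK cells, and list members that were not higher are not set beside them. A match is a description of the letters and not a measured binding site.

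Cell cycle genes had the highest median of the lists of responses. Of 27 counted genes 19 were over 2-fold higher and 0 lower, with a median of 1.72. Mki67, a marker of dividing cells, was at 9.64 CPM in 6 of 120 isotype cells and 269 CPM in 32 of 127 CD40 agonist cells, 27.9-fold higher (12.7 to 76.7). Top2a, the topoisomerase that untangles replicated DNA, was at 14.5 and 269 CPM, 18.6-fold higher (9.66 to 41.1). Birc5 and Cenpf, genes of mitosis, had no UMI in isotype NK cells and 106 and 91.0 CPM in the others, at least 21.9-fold and 18.9-fold higher, from a floor of 3 UMIs in the isotype library.

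Ube2c (1.61 and 164 CPM), Pclaf (1.61 and 158 CPM), Cks1b (1.61 and 70.4 CPM), Cdca8 (1.61 and 78.3 CPM), Cenpe (0 and 65.6 CPM) and the histone genes Hist1h1b (19.3 and 403 CPM) and Hist1h3c (0 and 92.95 CPM) were among the 15 named highest genes, and all serve DNA replication or division. These transcripts sat in a minority of cells, and few cells carried many of them. Without the 1 isotype and 5 CD40 agonist cells of 20000 or more UMIs the log2 ratio of Ube2c was 2.00 in place of 3.91 and that of Birc5 2.57 in place of 3.53, while that of Mki67 was 3.44 in place of 3.83. Thinned to 1000 UMIs, Mki67 was detected in 0% and 11.9% of NK cells, against 2.99% and 7.07% of phagocytes. The genes of replication differed among themselves: Pclaf and Hist1h1b stood among the highest, and Rrm2, of the enzyme that makes DNA building blocks, was at 3.21 and 52.8 CPM, while Pcna, the DNA polymerase clamp, was at 117 and 138 CPM and Mcm2, a helicase subunit, at 20.9 and 28.4 CPM.

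Spp1, which encodes the secreted protein osteopontin, had no UMI in isotype NK cells and 249 UMIs (244 CPM) in 27 CD40 agonist NK cells, at least 50.6-fold higher. One cell held 133 of these UMIs. Reference phagocytes had Spp1 at 21.6 and 22.97 CPM, so the level in CD40 agonist NK cells was 343 times the carry-over. Upp1, a uridine phosphorylase, went from 0 to 47.9 CPM (0 and 49 UMIs, in 18 cells), at least 9.95-fold higher. A single cell held 19 of the 49 Upp1 UMIs, and reference phagocytes had Upp1 at 0 and 35.7 CPM.

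Metabolic and growth lists had medians above that of all genes, and their counts past 2-fold differed between lists. Of 15 counted glycolysis genes 4 were over 2-fold higher and 0 lower, with a median of 0.38: Gapdh (569 and 1668 CPM), Aldoa (188 and 519.5 CPM), Pkm (231 and 539 CPM) and Pgk1 (111 and 235 CPM). Of 27 respiratory chain genes 1 was higher, Cox5a, and 0 lower, with a median of 0.27. Of 21 genes of translation and ribosome biogenesis 2 were higher, Ran and Nhp2, and 0 lower, with a median of 0.41. The unfolded protein response list had 0 of 18 higher and 1 lower, Ddit3 (88.4 and 27.4 CPM), with a median of 0.60. Genes that interleukin-2 and STAT5 induce gave 3 of 15 higher, Cish, Socs1 and Tnfrsf9, and 0 lower, with a median of 0.16.

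Receptors did not move in 1 direction. Of 18 activating receptors and adaptors 2 were over 2-fold higher and 3 lower, with a median of -0.24. Tnfrsf9, the costimulatory receptor 4-1BB, had levels of 40.2 and 146 CPM, a 3.63-fold ratio (2.37 to 5.79). Slamf7, a self-ligand receptor, was at 114 and 286 CPM, 2.50-fold higher (1.93 to 3.29). Klra8 and Klra4, which encode Ly49H and Ly49D, were at 739 and 242 CPM and at 675 and 311 CPM, and Klrc2 at 627 and 263 CPM. Klra genes are near-identical copies whose UMIs the counting could split. Klrk1, which encodes NKG2D, was at 1123 and 767 CPM, 1.46-fold lower (1.32 to 1.62).

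Of 14 inhibitory receptors 4 were over 2-fold higher and 1 lower, with a median of 0.01. The 4 were Pdcd1, which encodes PD-1 (3.21 and 41.1 CPM), Lilrb4a (38.6 and 118 CPM), Klra5 (40.2 and 111 CPM) and Cd200r1 (9.64 and 32.3 CPM), and the 1 was Klra9 (679.5 and 236 CPM). Klrg1, a receptor of terminally mature NK cells, was at 210.4 and 431 CPM, 2.05-fold higher (1.68 to 2.51).

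Receptors for the cytokines that prime NK cells moved apart. Il12rb1, a chain of the interleukin-12 receptor, was at 17.7 and 61.6 CPM, 3.49-fold higher (1.82 to 7.34), while Il12rb2, the other chain, was at 81.9 and 50.9 CPM. Il18r1, of the interleukin-18 receptor, was at 231 and 59.7 CPM, 3.88-fold lower (2.85 to 5.32). Il2rb, shared by the receptors for interleukin-2 and interleukin-15, was at 763 and 709 CPM, within counting error of no difference (1.08-fold lower, 0.956 to 1.21), and its direction flips under TMM scaling. In all, 2 of 16 cytokine receptors were over 2-fold higher, Il12rb1 and Il21r, and 2 lower, Il18r1 and Il10rb, with a median of -0.53. Cd40 had 0 and 3 UMIs in the NK cells and Cd40lg none in either library. The 3 Cd40 UMIs were at the level of the carry-over, 2.94 CPM against 3.05.

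Among cytokines and chemokines 1 of 11 was over 2-fold higher, Ltb, and 2 lower, Ccl3 and Tnfsf14, with a median of -0.24. Ifng was at 355 and 283 CPM, 1.26-fold lower (1.05 to 1.501). Ccl5, a chemokine held ready in NK cells, was at 15666 and 18262 CPM, and Ccl3, which attracts monocytes, at 1022 and 425 CPM, 2.41-fold lower (2.13 to 2.72). Xcl1, which attracts cross-presenting dendritic cells, was at 413 and 807 CPM, 1.96-fold higher (1.70 to 2.26). Its direction depended on which NK cells were compared, as given with the CD49b tag.

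The lineage transcription factors gave 0 of 21 over 2-fold higher and 6 lower, with a median of -0.45. Eomes, which defines NK cells against ILC1, was at 294 CPM in 76 of 120 cells and 98.8 CPM in 41 of 127, 2.97-fold lower (2.32 to 3.83). Tbx21, which encodes its partner T-bet, was at 199 and 164 CPM, 1.21-fold lower (0.953 to 1.54), but had log2 ratios of 0.27 and 0.31 within the CD49b-high and CD49b-low cells described further on. Lef1 and Tcf7, factors of early lymphocytes, were at 91.6 and 13.7 CPM and at 41.8 and 7.83 CPM, and Bach2, a repressor of effector genes, at 54.6 and 6.85 CPM. Klf2, which keeps lymphocytes circulating, was at 2170.3 and 625 CPM, 3.47-fold lower (3.16 to 3.82).

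The remaining lowest genes by the naming rule were Arl4d, a small GTPase (210.4 and 26.4 CPM, 7.97-fold lower), Cmah, a sialic acid hydroxylase (37 and 2 UMIs, 30.4-fold lower, 7.84 to 260.1), Pde2a, a cyclic nucleotide phosphodiesterase (153 and 19.6 CPM), Nr4a2, a nuclear receptor of the immediate early kind (321 and 68.5 CPM), Zbtb20, a zinc finger repressor (255 and 56.7 CPM), Gigyf1 (62.7 and 8.81 CPM), Satb1, a chromatin organiser (251 and 57.7 CPM), and Acss2, an acetyl-CoA synthetase (91.6 and 17.6 CPM). Under the alternative settings run, the log2 ratios of Arl4d, Nr4a2 and Zbtb20 came no closer to level than -1.77, -1.65 and -1.49. Those of Cmah, Acss2, Pde2a, Satb1 and Gigyf1 reached 0, -0.56, -0.66, -0.86 and -0.94, short of 2-fold. Lef1 and Bach2 likewise reached -0.66 and -0.88. Immediate early and dissociation genes as a list gave 0 of 26 higher and 9 lower, with a median of -0.65, among them Fos (753 and 292 CPM), Jun (1309 and 635 CPM) and Zfp36 (236 and 68.5 CPM). Genes of this kind also respond to tissue digestion, and its part was not tested.

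**Figure D3:**
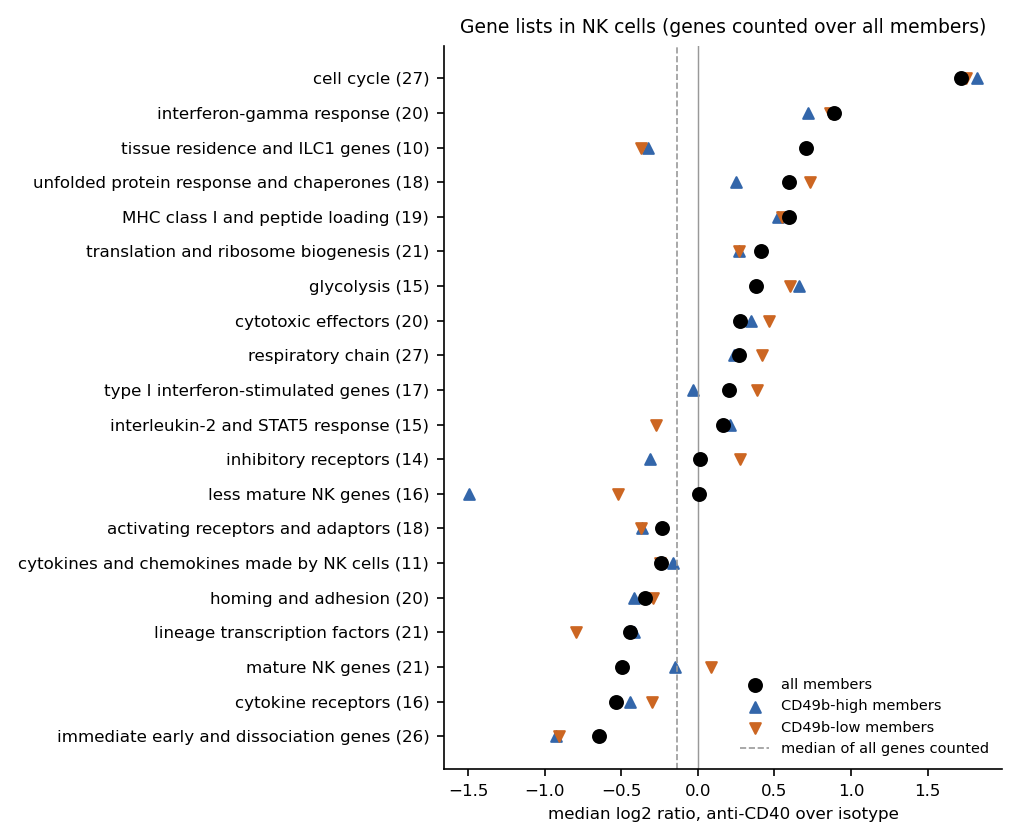
Median log2 ratio, CD40 agonist over isotype, of each gene list (horizontal axis) over all NK cells (black circles) and within CD49b-high (blue) and CD49b-low (orange) cells, the sets by surface CD49b given next, with the number of genes counted over all NK cells in brackets. The dashed line is the median of all counted genes, -0.13. Over all NK cells the cell cycle list is highest, at 1.72, and the immediate early list lowest, at -0.65.

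Surface proteins were read as tag CPM, scaled likewise to all tag UMIs of the NK cells, for 165 tags at 2 or more times the mean of the isotype control tags. After the CD40 agonist 42 tags (25.5%) were over 1.5-fold higher and 56 (33.9%) over 1.5-fold lower. The 9 control tags themselves averaged 75.2 and 52.6 tag CPM, and scaling to them gave 62 higher and 26 lower, so the direction of tags with small ratios depends on the scaling. The controls rest on only 101 and 91 tag UMIs.

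CXCR6, a chemokine receptor of tissue lymphocytes, was the highest by ratio, at 221 and 1976 tag CPM, 8.94-fold higher (6.26 to 13.2). CD69, which holds lymphocytes in tissue, was at 1212 and 8195 tag CPM, 6.76-fold higher (5.79 to 7.93), although Cd69 mRNA was at 296 and 300.4 CPM. CD8b, CD86 and CD169 completed the 5 highest, at 6.54-fold, 6.03-fold and 4.98-fold higher. These 3 are tags of T cells, antigen-presenting cells and macrophages, and on phagocytes of the CD40 agonist library they were at 1399, 17230 and 2078 tag CPM, above their levels on the NK cells. IgD, CD79b, CD24 and CD272, among the 5 lowest, are carried by B cells, and IgD was also lower on phagocytes, at 10826 and 89.8 tag CPM. CD49a, named above with CXCR6 and CD69 for ILC1, did not follow these 2 tags. It was at 382 and 473 tag CPM, a 1.24-fold ratio (0.880 to 1.76) within counting error of no difference, with a median of 0 UMIs in both libraries.

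Tags of NK cell proteins often followed their genes. KLRG1 was at 11515 and 37788 tag CPM, 3.28-fold higher, and CD90-2, the product of Thy1, at 18094 and 61370, 3.39-fold higher. Sca-1 was at 2901 and 14258 tag CPM, 4.92-fold higher, below its level on phagocytes (3531 and 36449). PD-1 was 4.67-fold, CD11c 4.23-fold and CD226 2.84-fold higher. CD102 was 3.39-fold lower, CD49b 2.36-fold, CD49d 2.23-fold and Ly49D 1.74-fold lower, each with lower mRNA of its gene. NKG2D and CD122 stood apart from their mRNA: NKG2D tags were 2.41-fold higher (2.12 to 2.74) with Klrk1 mRNA 1.46-fold lower, and CD122 tags 2.03-fold lower (1.80 to 2.30) with Il2rb mRNA nearly level. NK1.1 and NKp46, whose genes the rule used, were 1.52-fold and 1.46-fold lower. The CD40 tag was at 737 and 1331 tag CPM, 1.81-fold higher (1.44 to 2.28), with a median of 0.5 and 1 tag UMIs per cell.

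**Figure D4:**
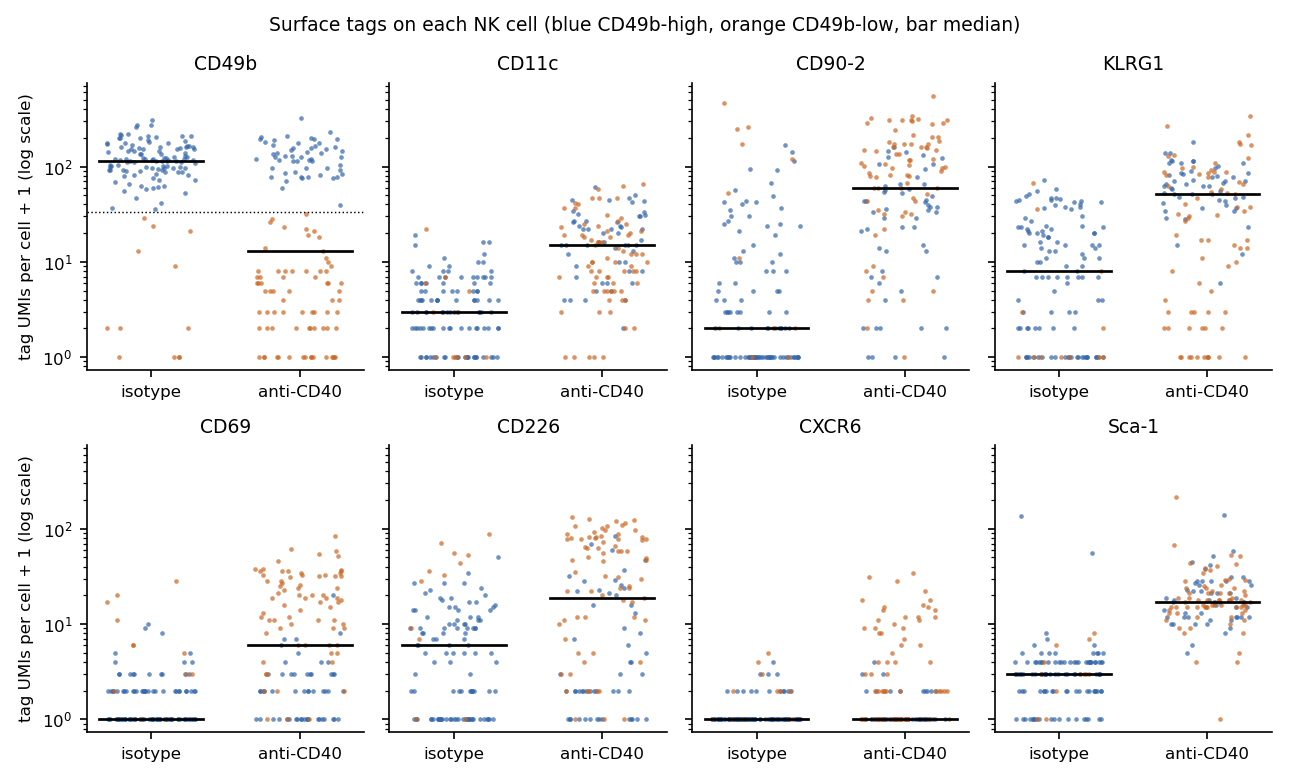
Tag UMIs with 1 added (vertical axis, log scale) of 8 surface tags on each NK cell of both libraries, with a point per cell, a bar at the median, blue for cells at or above the CD49b limit of 32 tag UMIs described next (dotted line) and orange for the others. The median Sca-1 tag is 2 and 16 UMIs, and the cells with many CD69, CXCR6 and CD226 tags are mostly orange.

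The CD49b tag split the NK cells, and the split differed between the libraries. With a limit of 32 CD49b tag UMIs, set after its values were seen and under which a cell was called CD49b-low, 12 of 120 isotype NK cells were CD49b-low (10%, 5.27 to 16.8) and 73 of 127 CD40 agonist NK cells were (57.5%, 48.4 to 66.2), a difference of 47.5 percentage points (36.5 to 56.7). CD49b-low cells were 0.469% and 1.71% of kept barcodes, and CD49b-high cells 4.22% and 1.26%. The median CD49b tag was 113 and 12 UMIs per cell, and 14 and 10 cells lay near the limit, at 16 to 63 UMIs. Median depths were 4794.5 and 5753.5 gene UMIs in isotype CD49b-high and CD49b-low cells and 6131.5 and 6209 in the CD40 agonist library. Of the 18 CD40 agonist cells with 64 or more F4/80 tag UMIs 16 were CD49b-low, and without such cells the difference was 42.0 points (30.5 to 52.1).

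CD49b-low cells differed from CD49b-high cells within each library, in genes other than that of the tag, Itga2, which the homing list holds. In the isotype library 8.64% of 5998 genes were over 2-fold higher and 11% over 2-fold lower in CD49b-low cells, which there rest on 12 cells, and in the CD40 agonist library 3.87% and 3.44% of 5582. Against this background, 7 of 10 and 8 of 9 counted residence and ILC1 genes were over 2-fold higher in CD49b-low cells, and 11 of 17 and 10 of 13 genes of less mature NK cells. Of the mature NK genes 14 of 21 and 13 of 21 were over 2-fold lower. Homing genes gave 3 higher and 7 lower of 21, and 4 higher and 8 lower of 19.

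Cxcr6 was at 3.66 and 4.96 CPM in CD49b-high cells and at 170.5 and 191 CPM in CD49b-low cells of the isotype and CD40 agonist libraries, so that the sets were far apart and the libraries close. Xcl1 was at 271 and 119 CPM in CD49b-high and 1429.6 and 1255 CPM in CD49b-low cells. Ltb, a lymphotoxin subunit, was at 49.4 and 9.93 CPM and at 236 and 265 CPM. Cma1, S1pr5 and Itgam, genes of circulating mature NK cells, went the other way, as in the CD40 agonist library with 298, 171 and 348 CPM in CD49b-high cells and 9.69, 19.4 and 62.99 CPM in CD49b-low cells. Pdcd1 UMIs were all in CD49b-low cells, 2 and 42 of them. Eomes was in both sets, at 308 and 81.9 CPM in CD49b-high and 197 and 109.8 CPM in CD49b-low cells, and Tbx21 at 216 and 263 CPM and at 78.7 and 100.1 CPM. The CD49b-low cells carried genes of both NK cells and ILC1, and they are named here by the tag alone.

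The same list counts between the libraries over all NK cells were read beside those within each set, since the share of CD49b-low cells differed. Over all cells 3.08% of 5884 genes were over 2-fold higher and 4.98% lower. There, 4 of 10 residence genes were over 2-fold higher and 0 lower (median 0.71), 2 of 16 less mature genes higher and 3 lower (0.01), 2 of 21 mature genes higher and 6 lower (-0.49), and 1 of 20 homing genes higher and 5 lower (-0.35). Within CD49b-high cells, where 3.5% of 5825 genes were higher and 8.43% lower, residence genes gave 1 of 5 higher and 0 lower, less mature genes 1 of 12 higher and 9 lower, mature genes 5 of 22 higher and 1 lower and homing genes 1 of 20 higher and 5 lower. Within CD49b-low cells, where 8.62% of 5763 were higher and 12.7% lower, residence genes gave 1 of 10 higher and 2 lower, less mature genes 0 of 15 higher and 4 lower, mature genes 5 of 20 higher and 2 lower and homing genes 0 of 20 higher and 3 lower. Interferon-gamma genes gave 5 of 19 higher within CD49b-high and 9 of 22 within CD49b-low cells. Xcl1, higher over all cells, was lower within CD49b-high cells, with a log2 ratio of -1.12. Within CD49b-low cells, where the isotype level rests on 12 cells, its log2 ratio of -0.19 was near the median of all genes there, -0.14.

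**Figure D5:**
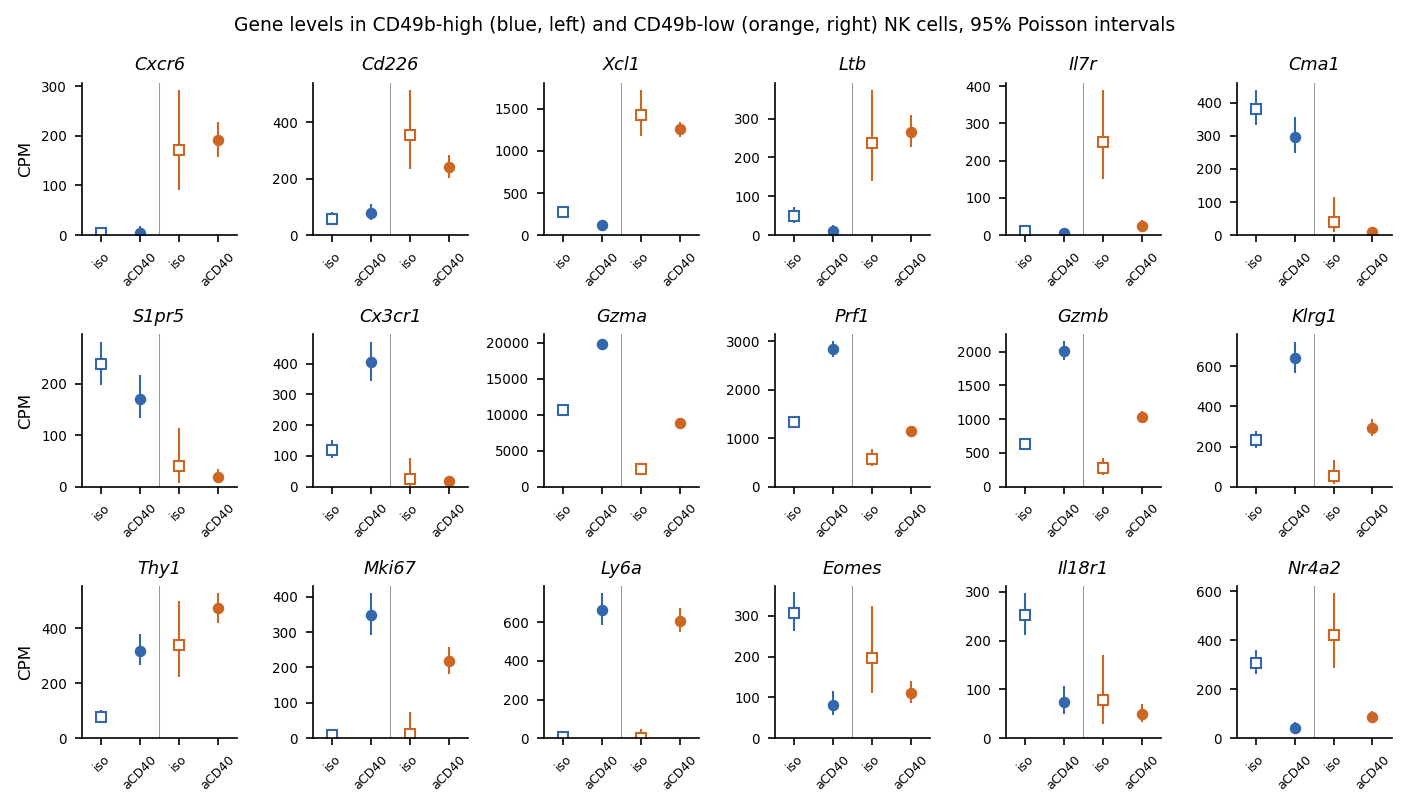
Levels of 18 genes, 1 panel each (vertical axis, CPM, linear from 0), in CD49b-high (blue) and CD49b-low (orange) NK cells of the isotype library (open squares) and the CD40 agonist library (filled circles), with 95% Poisson intervals as bars. Cxcr6, Xcl1 and Ltb are higher in CD49b-low cells of both libraries, Cma1 and S1pr5 are higher in CD49b-high cells, and Ly6a and Mki67 separate the libraries in both sets.

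Several differences between the libraries were present in both sets. Ly6a was at 3.66 and 665 CPM in CD49b-high cells and at 0 and 607 CPM in CD49b-low cells. Mki67 was at 9.15 and 348 CPM and at 13.1 and 218 CPM. Cell cycle genes were over 2-fold higher in 18 of 25 and 17 of 22 cases, against 3.5% and 8.62% of all genes counted. The isotype CD49b-low levels in this paragraph rest on 12 cells with 76247 gene UMIs, so low levels there are few UMIs. Gzmb was at 629.8 and 2013 CPM and at 275 and 1038 CPM, Prf1 at 1342 and 2839.8 CPM and at 577 and 1153 CPM, and Klrg1 at 232 and 640.4 CPM and at 52.5 and 294 CPM. Gzma was at 10598 and 19809 CPM in CD49b-high cells and 2466 and 8859.96 CPM in CD49b-low cells, so its 1.37-fold ratio over all cells is below that of either set (1.87-fold and 3.59-fold higher). Nr4a2 was 7.29-fold lower in CD49b-high and 4.90-fold lower in CD49b-low cells, and Arl4d 7.91-fold and 6.60-fold lower. Eomes and Il18r1 were over 2-fold lower in CD49b-high cells, at 3.75-fold and 3.39-fold, but had ratios of 1.79 (0.951 to 3.17) and 1.57 (0.536 to 3.82) in CD49b-low cells, within counting error of no difference.

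Other genes were over 2-fold apart between the libraries in 1 set. Cx3cr1, a receptor of patrolling cells, was at 119 and 405 CPM in CD49b-high cells, 3.40-fold higher (2.54 to 4.61), and at 26.2 and 19.4 CPM in CD49b-low cells. Cd7 was at 306 and 59.6 CPM in CD49b-high cells, 5.13-fold lower (3.33 to 8.24), and at 511 and 594 CPM in CD49b-low cells. Cxcr3 had 22 and 0 UMIs in CD49b-high cells, of 546242 and 402853 gene UMIs. In CD49b-low cells Cxcr3 had 12 and 66 UMIs, of 76247 and 619190 gene UMIs. Scaled to those sums, its level in CD49b-low cells was not higher after the agonist. Il7r, the interleukin-7 receptor chain, was at 249 and 25.8 CPM in CD49b-low cells, from 19 and 16 UMIs, and at 11.0 and 4.96 CPM in CD49b-high cells. These contrasts were not tested as differences between the sets.

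The tags followed the same split. In the CD40 agonist library CD69 was at 1229 tag CPM on CD49b-high and 12479 on CD49b-low cells, CXCR6 at 218 and 3057, PD-1 at 218 and 2847, and CD226 at 8262 and 29737, whereas CD11b was at 51209 and 8406. CD49a was at 369 and 537, with a median of 0 UMIs on both sets. CD86 was at 1557 and 16586 and F4/80 at 18435 and 47305. Without cells of 64 or more F4/80 tag UMIs, F4/80 was at 14730 and 16824, while CD69 was at 14785 and CD86 at 16026 on CD49b-low cells. Within CD49b-high cells the ratio between the libraries was 1.42 for CXCR6, 1.78 for CD69 and 0.889 for PD-1, but 5.26 for CD11c, 5.10 for Sca-1, 4.06 for KLRG1 and 2.96 for CD90-2. CD11b, 1.16-fold lower over all NK cells (1.11 to 1.21), had a ratio of 1.66 within CD49b-high cells.

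Transcripts of other cells also differed between the libraries in these NK cells. S100a8 and S100a9, abundant neutrophil genes, were at 46.6 and 209 CPM and at 25.7 and 206 CPM, and the other neutrophil markers of the list were at or near 0. The immunoglobulin gene Igkc was at 138 and 4.89 CPM in NK cells and at 136 and 2.44 CPM in phagocytes. Of the dendritic cell markers 2 of 5 counted were over 2-fold lower, Cd209a and Cd74, and 0 higher, and of the phagocyte markers 1 of 9 higher and 3 lower, none of these 4 above the carry-over. The direction of the dendritic cell markers rests on 1 isotype cell, which held 1490 of their 1861 isotype UMIs. With that cell they summed to 2990 and 1352 CPM, and without it to 619 and 1352 CPM, with 3 of 4 counted markers over 2-fold higher and 0 lower. Phagocyte markers then gave 3 of 7 higher and 2 lower. T cell markers gave 0 of 5 higher and 1 lower, Trdc (88.4 and 31.3 CPM), and ILC2 and ILC3, endothelial and B cell markers 0 of 1, 0 of 1 and 0 of 2 higher, with both B cell genes lower. NK markers outside the rule gave 0 of 17 higher and 3 lower, with a median of -0.26.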

How the data were processed

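Gene UMI counts and surface tag counts were deposited by the authors as filtered matrices of whole numbers, 1 library per treatment. Cell Ranger 6.0.1 stands in the file header, but Cell Ranger 3, Seurat 3 and the builds mm10 and GRCh38 stand, without roles, in the submitters' processing notes, and per the labels the libraries are 10x 5′ libraries. NK cells were chosen by the rule above, and their counts were summed per library with Python 3.11.15, numpy 2.4.6, scipy 1.17.1 and pandas 2.3.3. The exact Poisson, Clopper-Pearson, conditional binomial and Newcombe intervals cover counting error only. A gene at 0 was given a floor of 3 counts per library. TMM factors came from edgeR 4.0.16, which made no test. Members and lists were chosen with earlier results of these data known. The text names the 15 highest and 10 lowest log2 ratios among genes of at least 30 UMIs in 10% of members and above the carry-over, plus listed NK genes. Reference phagocytes had 10 or more C1q UMIs, reference T cells 3 or more Cd3 UMIs and reference neutrophils 6 or more Csf3r and Retnlg UMIs. On Poisson counts simulated from the summed levels, 8 of 5642 unchanged genes passed 2-fold. That simulation holds counting error alone, without UMIs clustered in single cells or spread between mice, so it gives no error rate for the calls here. Unnamed gene models were not named, and a few features are not reported here.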

Additional observations from a re-analysis of the deposited data

Results flagged for a closer look

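Barcodes that met the NK threshold but held too many UMIs of another type were left out of the comparisons. They were 110 of 4278 kept barcodes in the CD40 agonist library (2.57%, 2.12 to 3.09) and 31 of 2558 in the isotype control library (1.21%, 0.825 to 1.72). The limits are raw UMI counts, and kept barcodes had a median of 8284.5 gene UMIs in the CD40 agonist library and 5446 in the isotype library. Kept barcodes with 9 or fewer C1q UMIs numbered 1520 of 4278 and 1435 of 2558. The part of depth and of macrophage transcripts in the difference was not tested. Of the barcodes left out, 77 and 15 were over the limit on C1q, 63 and 15 over that on Cd3, 17 and 4 over that on neutrophil genes and 0 and 7 over that on B cell genes, and a barcode could exceed several. Those over the Cd3 limit in the CD40 agonist library had a median of 8 Cd3 UMIs and 12 NK UMIs, against 3 and 12 in the isotype library. Of the 63 and 15, 25 and 6 had a UMI of Trac and 18 and 1 of Cd8a, and their median CD49b tag was 4 and 39 UMIs. Whether they are T cells with NK receptors or droplets of more than 1 cell was not tested.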

How the results depend on the processing

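Against 293 genes over 2-fold lower, there were 181 with TMM scaling, 188 with median-of-ratios scaling, 498 with a prior of 2 CPM, 53 with a prior of 50 CPM, 157 with a mean of at least 50 CPM, 457 with strict limits on other cell types (209 of them among the 293) and 884 with cells thinned to 1000 UMIs (172 among the 293). Against 181 higher, there were 56 with the prior of 50 CPM, 100 at a mean of 50 CPM, 319 with no filter and 526 after thinning (107 among the 181), so most calls after thinning are other genes. In alternatives added after seeing the data, CD49b-high cells alone gave 491 lower, and CD49b-low cells alone 497 higher and 733 lower. The cause was not tested beyond what these settings build in, such as fewer genes or cells. The NK share differed by -3.72 points at 500 genes and 5% mitochondrial UMIs, -0.363 with no limits on other types, and -0.00711 among barcodes with 9 or fewer C1q UMIs. Tags over 1.5-fold apart numbered 98, and 47 by centred log ratios. The CD49b-low share differed by 39.9 to 53.5 points under every alternative run. After thinning to 2000 in place of 1000 UMIs, 31 of 54 shares moved. No paired analysis was possible because each treatment is 1 library.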
